A study of Homo sapiens with 12 samples.

Results

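Among the genes that HMEC-1 endothelial cells express under oncostatin M, 74 had a much lower level when CBP300 was added and kept most of their level, or more, when PF9363 was added instead. They were chosen by the measured values themselves. The mean of the OSM libraries had to be at least 5 TPM (transcripts per 1e6 transcripts, a level scaled for transcript length and to a common total per library). The CBP300 mean had to be at most 0.25 of the OSM mean and the PF9363 mean at least 0.5 of it. Of 60623 genes in the table, 11145 reached the OSM level, 131 of these also met the CBP300 limit and 86 met all 3 limits. Leaving out 9 genes by the start of their symbol (HOX, collagen, chemokine, metalloprotease and several vascular genes) and 3 without a symbol gave the 74 members. The differences between CBP300, PF9363 and OSM chose the genes, so they are given as descriptions without a test. Only the CT libraries played no part in the choice.

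HMEC-1 cells are endothelial cells of small vessels of human skin, grown as an immortalised line. There were 4 groups of 3 libraries, all harvested 48 h after the medium was changed: oncostatin M with CBP300 at 10 µg/mL (CBP300), oncostatin M with PF9363 at 30 µg/mL (PF9363), oncostatin M alone (OSM) and complete medium (CT). The labels name CBP300 as an inhibitor of EP300 and PF9363 as one of KAT6A and KAT6B, 3 histone acetyltransferases. Oncostatin M is given as 10 ng/mL in the protocol and as 10 µg/mL in the sample labels. No vehicle is named and no group had an inhibitor without the cytokine, so an effect on the response to oncostatin M and an effect on the cells themselves cannot be told apart. The labels do not say that replicates were separate cultures, so a p-value here speaks of the spread among libraries, which may be technical. The part of fewer cells expressing a gene and of less RNA per cell cannot be told apart in bulk RNA.

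EP300 and its paralog CREBBP acetylate histones, among them histone H3 at lysines of active enhancers and promoters, and act as coactivators for many transcription factors. KAT6A and KAT6B are acetyltransferases of the MYST family that work in a complex with BRPF and ING proteins. In endothelium, ETS and SOX factors are known regulators of genes such as ROBO4. Oncostatin M is a cytokine of the interleukin 6 family that signals through gp130 to JAK kinases and STAT3.

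The promoters of 4 members are shown, from 250 bases before to 50 bases after the annotated start, chosen after their matches to a motif were seen. Among them CEACAM1 and GIMAP4 were higher in OSM than in CT, ROBO4 had a similar level and RNASE1 was lower. Sequences are from RefSeq on GRCh38.p14, 5′ to 3′ on the gene's strand. Capitals mark AGGAAG, a form of the ETS core, or CTTCCT, its reverse complement. The windows are chr19:42528432-42528731 (minus strand, CEACAM1), chr7:150567140-150567439 (plus strand, GIMAP4), chr11:124897816-124898115 (minus strand, ROBO4) and chr14:20802795-20803094 (minus strand, RNASE1).
CEACAM1: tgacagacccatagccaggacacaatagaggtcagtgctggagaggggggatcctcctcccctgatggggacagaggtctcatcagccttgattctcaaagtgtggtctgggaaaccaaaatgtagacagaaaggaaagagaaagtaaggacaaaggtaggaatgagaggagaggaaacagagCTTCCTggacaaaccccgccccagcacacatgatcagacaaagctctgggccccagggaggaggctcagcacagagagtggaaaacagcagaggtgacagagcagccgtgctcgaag
GIMAP4: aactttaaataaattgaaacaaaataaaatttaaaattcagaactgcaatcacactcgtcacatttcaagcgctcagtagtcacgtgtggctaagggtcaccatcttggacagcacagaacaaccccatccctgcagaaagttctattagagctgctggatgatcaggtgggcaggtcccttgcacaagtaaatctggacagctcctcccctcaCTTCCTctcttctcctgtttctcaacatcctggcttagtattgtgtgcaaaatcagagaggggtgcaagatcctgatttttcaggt
ROBO4: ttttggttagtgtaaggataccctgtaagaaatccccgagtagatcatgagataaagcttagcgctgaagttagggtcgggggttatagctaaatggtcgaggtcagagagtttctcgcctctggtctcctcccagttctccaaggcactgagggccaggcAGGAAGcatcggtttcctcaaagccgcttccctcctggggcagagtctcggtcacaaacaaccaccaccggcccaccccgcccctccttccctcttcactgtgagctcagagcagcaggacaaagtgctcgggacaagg
RNASE1: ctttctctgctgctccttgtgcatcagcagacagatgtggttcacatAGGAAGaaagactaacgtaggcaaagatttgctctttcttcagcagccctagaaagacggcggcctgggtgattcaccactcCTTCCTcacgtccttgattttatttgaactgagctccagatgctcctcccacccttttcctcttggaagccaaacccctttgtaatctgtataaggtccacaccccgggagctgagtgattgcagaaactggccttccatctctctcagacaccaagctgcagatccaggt
The match begins at base -67 in CEACAM1, at -36 in GIMAP4, at -89 in ROBO4 and at -203 and -121 in RNASE1. Among all 27305 promoters of this length, 33.7% hold the motif on at least 1 strand. The motif is 1 of 9 searched, and the genes were chosen because they hold it and cover the 3 relations to CT, so the matches describe these windows and no site or cause. Only 54 of the 74 members (73.0%) have a promoter in the table, too few for a statement over the set. The windows hold 3 CpG dinucleotides in CEACAM1 and in GIMAP4, 11 in ROBO4 and 5 in RNASE1.

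The members were a group of mostly protein-coding genes of mostly moderate level. Of the 74, 61 are protein coding in GENCODE release 29, 6 are antisense RNAs, 3 are lincRNAs, 2 are processed pseudogenes and 1 is a miRNA locus. 1 is not in that release. The OSM mean was at least 5.15 TPM with a median of 13.7 TPM. It was at least 100 TPM for 7 members and 5 to 10 TPM for 28. The ratio of the CBP300 to the OSM mean had a median of 0.167 (range 0.0038 to 0.243), and 15 members were under 0.1. The ratio of the PF9363 to the OSM mean had a median of 0.819 (range 0.532 to 8.09). All 3 CBP300 libraries were below all 3 OSM libraries for 73 members, the exception being HBA2. The PF9363 libraries were all below the OSM libraries for 34 members, all above them for 16 and overlapped them for 24. The limits shape these counts, and no share of non-overlap over all tested genes is given, so they are no result about the members. By limma, another measure, 35.6% of all tested genes were lower and 11.3% higher in PF9363 than in OSM.

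**Figure D1:**
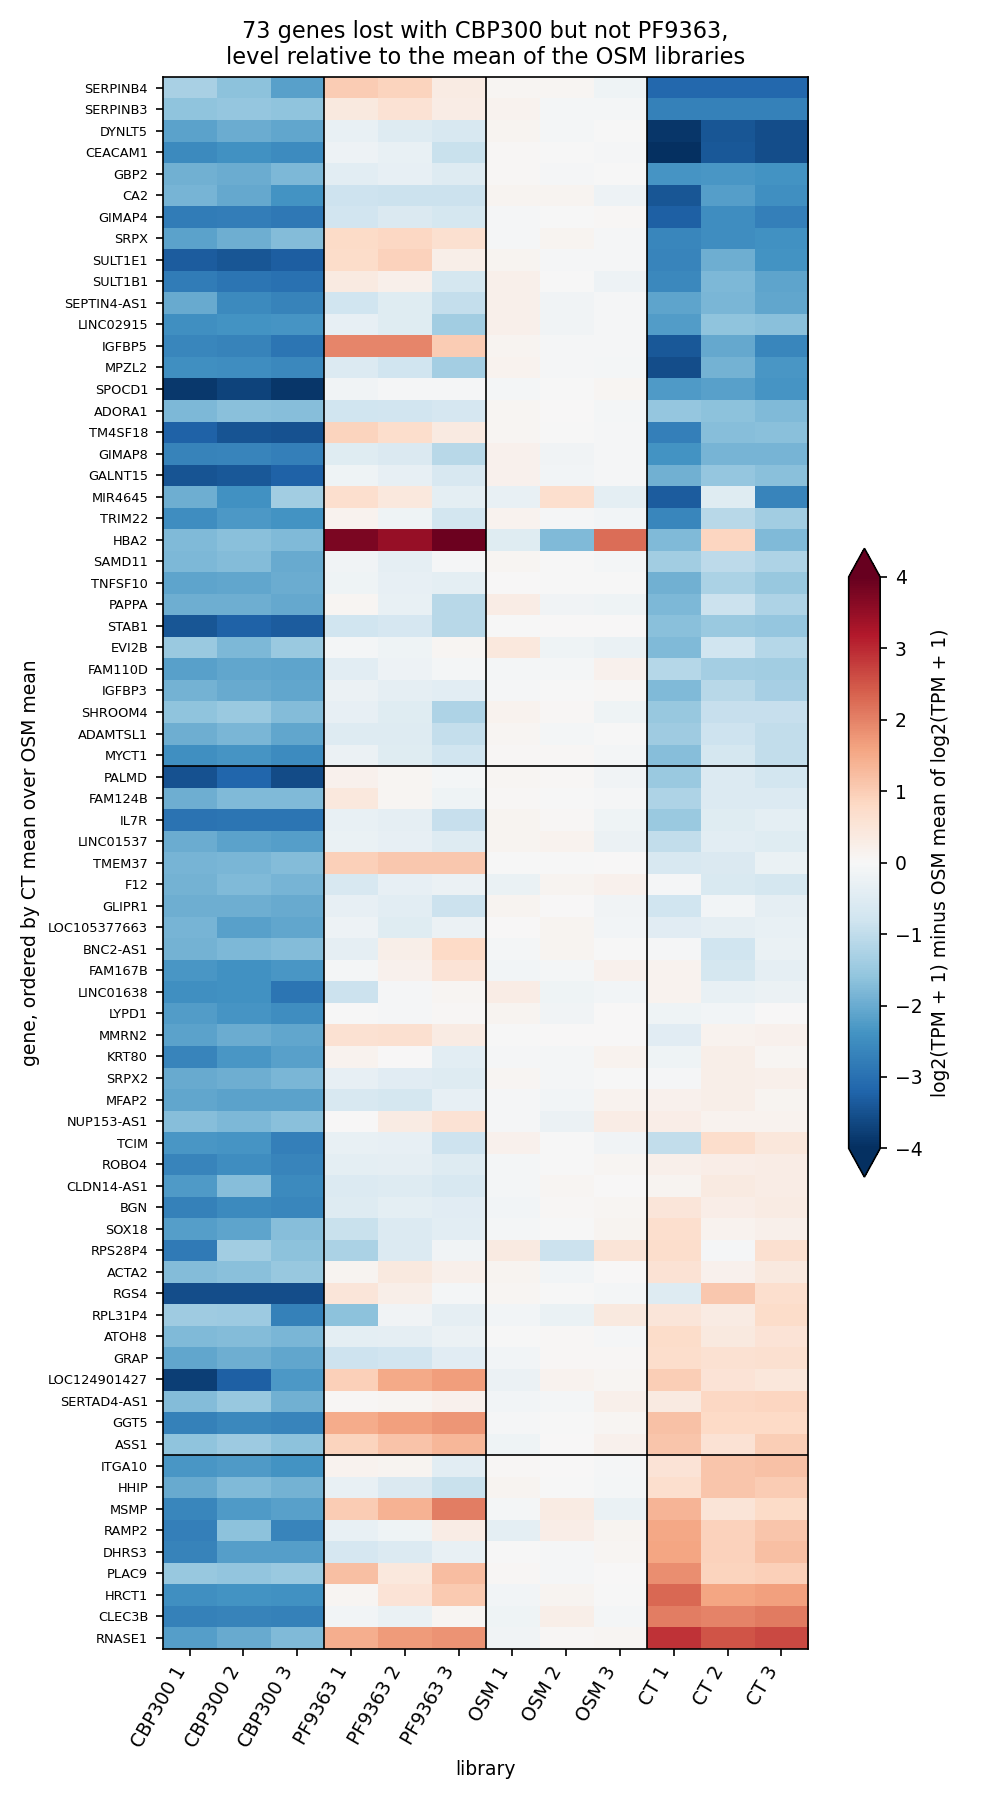
Heat map of 73 of the 74 members (rows, ordered by the CT mean over the OSM mean) in the 12 libraries (columns, in the order CBP300, PF9363, OSM, CT). Colour is log2(TPM + 1) minus the mean of the 3 OSM libraries, with colours ending at -4 and 4, and horizontal lines part the members with a CT mean under 0.5, from 0.5 to 2 and over 2 times the OSM mean (32, 32 and 9 genes drawn). The CBP300 columns are blue for nearly all rows, PF9363 columns are pale or red for many, and CT columns go from blue at the top to red at the bottom.

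Near each limit the choice is a matter of small differences. At the OSM level, MSMP (5.15 TPM), SAMD11 (5.16 TPM) and HBA2 (5.44 TPM) lie just inside, and RFLNA (4.76 TPM), CRP (4.76 TPM) and RPL29P19 (4.35 TPM) just outside. At the CBP300 limit, SHROOM4 (0.243 of the OSM mean), IGFBP3 (0.243) and RNASE1 (0.242) are inside, and FAM107A (0.251), CREB3L1 (0.252) and DUSP23 (0.254) are outside. At the PF9363 limit, CA2 (0.532) and ADORA1 (0.536) are inside, and CCDC80 (0.499), RAPGEF4 (0.487) and CDH5 (0.484) are outside.

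The libraries held 13.4 to 73.3 M recovered reads (M, 1e6) in CBP300, 15.7 to 16.5 M in PF9363, 15.8 to 20.8 M in OSM and 16.8 to 19.6 M in CT. In 2 groups 1 library lay away from the rest, replicate 1 of CT and replicate 3 of PF9363. The mean absolute log2 difference per gene was 0.58 and 0.48 between CT replicate 1 and the other CT libraries, against 0.22 between those. For PF9363 replicate 3 it was 0.46 and 0.39, against 0.25. The dependence of level on GC content also differed: per 10 points of GC, relative to the mean of all libraries, it was -0.35 to -0.29 (log2) in CBP300, -0.15 to 0.11 in PF9363, -0.11 to 0.01 in OSM and 0.22 to 0.60 in CT. The median GC content of the members' transcripts was 51.6%, against 48.4% over tested genes, and the part of this in the results was not tested; values after removal of a trend on GC content and length are called corrected below and given where they turn a sign. The 10 endothelial markers all reached 1 TPM, with summed levels of 672 to 714 TPM in CBP300, 1053 to 1140 in PF9363, 1206 to 1257 in OSM and 1324 to 1460 in CT. SOX18 is both a marker and a member. Summed epithelial markers were 528 to 537 TPM in CBP300, 2691 to 3876 in PF9363, 770 to 838 in OSM and 796 to 1083 in CT. Of these 10 markers only 5 reached 1 TPM, with GRHL2 at 0 and ESRP1 under 0.1 TPM in all libraries. Leukocyte markers summed to 16.3 to 18.4 TPM in CBP300, 46.6 to 62.0 in PF9363, 14.2 to 17.9 in OSM and 5.17 to 7.62 in CT, with PTPRC under 0.1 TPM throughout. The part of these in the results was not tested.

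Relative to CT, the members divided into genes raised by oncostatin M, genes of similar level and genes lowered by it. With limma on log2(TPM + 1), OSM was above CT for 37 of the 74 and below it for 17 (adjusted p under 0.05 over 16848 tested genes), and 20 did not pass. Over all tested genes 42.1% were higher and 15.2% lower. In CBP300 against CT, 6 members were higher and 55 lower, beside 48.1% and 22.7% of all tested genes. The choice places the CBP300 mean below the CT mean for every member with a CT mean over 0.25 of the OSM mean. For 42 of the 74, those with a CT mean of at least 0.5 of the OSM mean, it lies at or under 0.5 of CT. The part of all these members in the count of 55 is no result. In PF9363 against CT, 35 were higher and 18 lower, beside 27.9% and 28.4%. All 74 passed the filter on low values, as they had to through the OSM level, and the choice favours high OSM, low CBP300 and kept PF9363 values. These comparisons share the CT libraries. The median log2 difference of the members was -1.65 in CBP300 against CT, 0.58 in PF9363 against CT and 0.48 in OSM against CT. Over all tested genes it was 0.38, 0.04 and 0.31 in the same comparisons. It was 0.11 in CBP300 against OSM and -0.31 in PF9363 against OSM over all tested genes.

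Only members with a CT mean under 0.25 of the OSM mean were free to lie on either side of CT in CBP300. They are a part of the 32 members with a CT mean under 0.5 of the OSM mean. For these 32 the median ratio of the CBP300 to the CT mean was 0.600. Of the 32, 6 were higher in CBP300 than in CT, 13 lower and 13 did not pass. Where their CT mean was over 0.25 of the OSM mean, the direction was set by the choice. For the 33 members of similar level in OSM and CT the median ratio was 0.146, and for the 9 with a CT mean over 2 times the OSM mean it was 0.0511. In both of these classes every CBP300 mean was below the CT mean, as the limits require. Over the 74 members the CBP300 mean was under 0.5 of the CT mean for 56, between 0.5 and 2 times it for 13 and over 2 times it for 5. The order of the 3 medians is shaped by the choice and is no result.

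**Figure D2:**
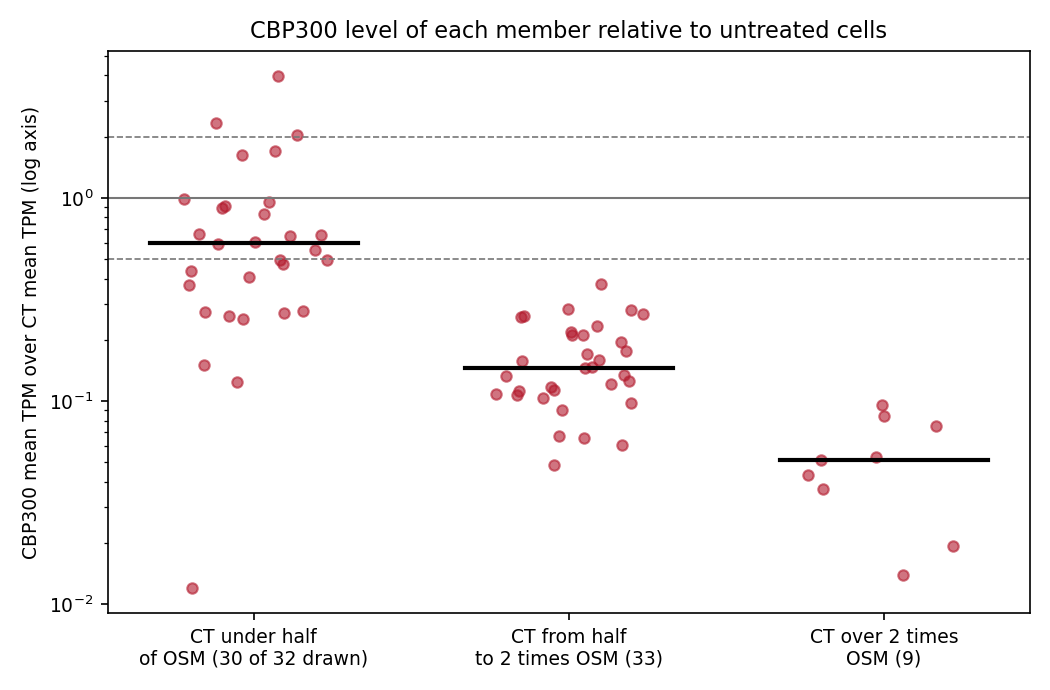
Ratio of the CBP300 mean to the CT mean for each member (points, log axis), in the classes of CT relative to OSM; black lines are class medians (0.600, 0.146 and 0.0511), the grey line marks equal levels and dashed lines 0.5 and 2 times CT. SERPINB3 and SERPINB4, at 0 in all CT libraries, are not drawn. Most points lie below the grey line, and those above it are all in the first class, as the limits require.

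Secreted and matrix proteins were among the members of highest level. BGN encodes biglycan, a small leucine-rich proteoglycan of the matrix. It had 154, 174 and 165 TPM in CBP300, 706, 778 and 739 TPM in PF9363, 933, 1047 and 1076 TPM in OSM and 1418, 1228 and 1268 TPM in CT. None of the 4 groups overlapped another, and the log2 difference of CBP300 from CT was -2.98, its direction set by the choice.

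The members include 2 binding proteins of insulin-like growth factors, IGFBP5 and IGFBP3, which stood differently in PF9363. IGFBP5 had 20.4, 19.9 and 16.5 TPM in CBP300, 512, 509 and 265 TPM in PF9363, 142, 126 and 125 TPM in OSM and 11.6, 31.1 and 20.8 TPM in CT. PF9363 was the highest group without overlap, while CBP300 lay within the CT range. IGFBP5 rose in OSM against CT (log2 change 2.67, SE 0.32, limma adjusted p = 0.000334) and in PF9363 against CT (4.31, SE 0.32, adjusted p = 1.94e-06). Its CBP300 level differed from CT by -0.06 (adjusted p = 0.883), and by -0.78 in corrected values, where it passed. IGFBP3 averaged 19.4 ± 1.40 TPM in CBP300, 62.9 ± 4.01 in PF9363, 79.6 ± 1.86 in OSM and 30.0 ± 6.80 in CT (SD, n = 3 each). PAPPA, a protease that cleaves such binding proteins, averaged 0.831 ± 0.0613 TPM in CBP300, 4.6 ± 2.12 in PF9363, 6.29 ± 1.32 in OSM and 2.03 ± 0.937 in CT. Among relatives that are no members, the ratio of CBP300 to OSM was 0.165 for IGFBP1, which averaged 2.18 TPM in OSM and so missed the level, 1.28 for IGFBP2, 0.582 for IGFBP4, 0.454 for IGFBP6 and 0.490 for IGFBP7. MMRN2, an endothelial glycoprotein of the matrix also called multimerin 2, averaged 30.5 ± 1.66 TPM in CBP300, 190 ± 21.2 in PF9363, 131 ± 0.514 in OSM and 130 ± 29.7 in CT. Its OSM level differed from CT by 0.04 on the log2 scale (adjusted p = 0.859), a difference that was -0.25 in corrected values and -0.36 with median-of-ratios scaling. It overlaps ADIRF and SNCG on the other strand, whose reads cannot be told apart from its own where the counting strand is not stated.

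**Figure D3:**
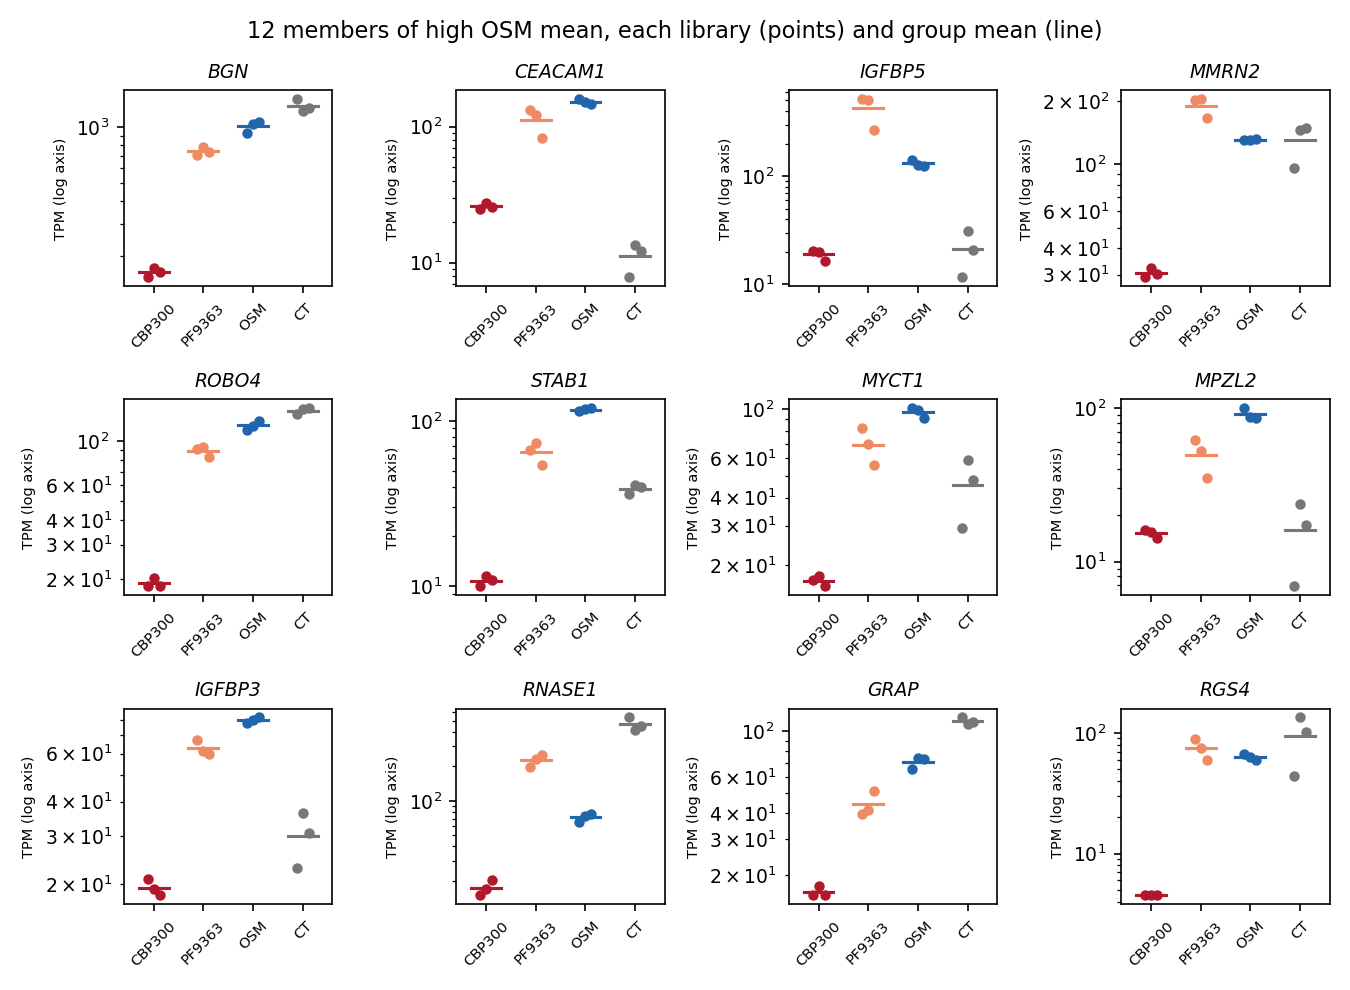
TPM of 12 members of high OSM mean in each library (points, log axes that differ between panels) with group means (lines), in the order CBP300, PF9363, OSM, CT. CBP300 is below OSM in every panel. CT lies above OSM for RNASE1, GRAP, BGN and ROBO4 and far below it for CEACAM1, IGFBP5 and MPZL2.

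Among surface proteins of endothelium, ROBO4 and STAB1 were low in CBP300 and kept over 0.5 of their OSM level in PF9363. ROBO4 is an endothelial receptor of the roundabout family that stabilises vessels (chromosome 11, 124883691 to 124898500). It had 18.4, 20.4 and 18.5 TPM in CBP300, 91.4, 93.4 and 83.1 TPM in PF9363, 114, 120 and 126 TPM in OSM and 137, 145 and 146 TPM in CT. The groups did not overlap, and the log2 difference of CBP300 from CT was -2.84, its direction again set by the choice. Its log2 change in OSM against CT was -0.25 (limma adjusted p = 0.0223), a call lost without CT replicate 3 (-0.23), OSM replicate 1 (-0.21) or OSM replicate 2 (-0.25). STAB1 encodes stabilin 1, a scavenger receptor of sinusoidal endothelium and macrophages. It had 9.96, 11.5 and 10.8 TPM in CBP300, 67.1, 73.7 and 54.0 TPM in PF9363, 115, 117 and 119 TPM in OSM and 36.1, 40.8 and 39.6 TPM in CT. STAB1 thus rose in OSM against CT (1.57, SE 0.11, limma adjusted p = 1.26e-05). Its log2 difference of CBP300 from CT was -1.76, its direction set by the choice. There was no overlap in either comparison.

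CEACAM1, an adhesion molecule that also acts as an inhibitory receptor, was among the members with the largest change in OSM against CT. It had 24.9, 27.3 and 25.6 TPM in CBP300, 131, 122 and 82.1 TPM in PF9363, 158, 151 and 146 TPM in OSM and 7.78, 13.5 and 12.2 TPM in CT. All 4 groups were apart. The log2 change was 3.68 in OSM against CT (SE 0.20, limma adjusted p = 1.84e-06) and 1.18 in CBP300 against CT (SE 0.20, adjusted p = 0.000422), so CEACAM1 was among the 6 members still above CT in CBP300. MPZL2, an adhesion protein of the immunoglobulin family, averaged 15.3 ± 0.880 TPM in CBP300, 49.7 ± 13.6 in PF9363, 91.1 ± 7.30 in OSM and 16.0 ± 8.55 in CT. Its CBP300 level differed from CT by 0.09 (log2, adjusted p = 0.83), and by -1.09 in corrected values.

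SOX18, a transcription factor of endothelial development, averaged 7.75 ± 1.63 TPM in CBP300, 21.9 ± 3.68 in PF9363, 33.9 ± 2.32 in OSM and 44.0 ± 9.71 in CT. Its OSM level differed from CT by -0.35 (log2, adjusted p = 0.12), and by 0.14 in corrected values. MYCT1, a membrane protein of endothelial cells, averaged 17.0 ± 0.954 TPM in CBP300, 69.1 ± 13.0 in PF9363, 97.0 ± 5.05 in OSM and 45.4 ± 15 in CT. It rose in OSM and was lower in CBP300, both against CT, the second direction being set by the choice. Among list genes that are no members, PECAM1 averaged 46.2 TPM in CBP300, 120 in PF9363, 115 in OSM and 95.2 in CT, while KDR averaged 54.2 TPM in CBP300, 47.9 in PF9363, 54.5 in OSM and 15.8 in CT. Of 22 endothelial surface genes tested, 1 was higher and 16 were lower in CBP300 than in OSM (limma, all tested genes 13.8% higher and 13.3% lower), with a median log2 difference of -0.91. In PF9363 against OSM, 8 were higher and 5 lower (all tested genes 11.3% and 35.6%), with a median of 0.04. The list holds 2 members, chosen on these contrasts.

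Signalling proteins among the members stood in different ways relative to CT. RGS4, which speeds the deactivation of G proteins, had 4.51, 4.56 and 4.50 TPM in CBP300, 88.8, 74.7 and 60.2 TPM in PF9363, 67.1, 63.1 and 60.2 TPM in OSM and 44.0, 135 and 103 TPM in CT. CBP300 was far below all other libraries, which overlapped one another. The log2 difference of RGS4 between OSM and CT was -0.41 (limma adjusted p = 0.286). RAMP2, a partner of the adrenomedullin receptor, averaged 1.29 ± 1.05 TPM in CBP300, 9.65 ± 2.43 in PF9363, 10.1 ± 2.56 in OSM and 24.4 ± 5.73 in CT. ADORA1, the adenosine A1 receptor, averaged 1.34 ± 0.0966 TPM in CBP300, 3.6 ± 0.192 in PF9363, 6.71 ± 0.391 in OSM and 1.46 ± 0.181 in CT, so CBP300 and CT differed by -0.07 (log2, adjusted p = 0.54). GRAP, an adaptor related to GRB2, averaged 16.5 ± 1.04 TPM in CBP300, 44.1 ± 6.05 in PF9363, 71.0 ± 4.66 in OSM and 112 ± 4.20 in CT.

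The members include genes known from immune cells. TNFSF10, the death ligand TRAIL, had 5.35, 5.52 and 6.0 TPM in CBP300, 23.3, 20.9 and 19.9 TPM in PF9363, 27.0, 26.2 and 26.3 TPM in OSM and 6.33, 10.4 and 8.71 TPM in CT. CBP300 was below CT, as the choice requires for this gene, and OSM above it, with no overlap. IL7R, a chain of the receptor for interleukin 7, had 0.294, 0.309 and 0.320 TPM in CBP300, 7.09, 6.74 and 4.26 TPM in PF9363, 9.62, 9.34 and 7.90 TPM in OSM and 2.53, 6.08 and 6.52 TPM in CT. CBP300 was far below all other libraries. Its rise in OSM against CT (log2 change 0.79, limma adjusted p = 0.0271) was not kept without CT replicate 1 (0.44) and was -0.16 in corrected values, and its difference in PF9363 against CT, 0.27, was -0.30 in them. Of 21 cytokine and receptor genes tested, which include these, 14 were lower in CBP300 than in OSM, and in PF9363 8 were higher and 3 lower. Over all tested genes 13.8% were higher and 13.3% lower in CBP300, and 11.3% higher and 35.6% lower in PF9363. TNFSF10 and IL7R are in the list and were chosen on these contrasts.

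GBP2, an interferon-inducible GTPase, averaged 1.13 ± 0.153 TPM in CBP300, 4.96 ± 0.369 in PF9363, 6.97 ± 0.246 in OSM and 0.550 ± 0.0436 in CT. It rose in OSM against CT (log2 change 2.36, SE 0.10, limma adjusted p = 4.2e-07). In CBP300 against CT it was higher by 0.45 (adjusted p = 0.0027), but lower by -0.48 in corrected values. Of 24 interferon genes tested, 1 was higher and 6 were lower in CBP300 than in OSM, and 18 were higher and 2 lower in PF9363 than in OSM. Over all tested genes 13.8% were higher and 13.3% lower in CBP300, and 11.3% higher and 35.6% lower in PF9363. GBP2 is in the list and was chosen on these contrasts. TRIM22, an antiviral protein induced by interferon, averaged 3.17 ± 0.288 TPM in CBP300, 18.0 ± 5.42 in PF9363, 21.0 ± 1.96 in OSM and 6.40 ± 3.43 in CT.

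GIMAP4 and GIMAP8 belong to a cluster of genes for GTPases of immunity-associated proteins on chromosome 7, which were first described in lymphocytes. GIMAP4 (chromosome 7, 150567277 to 150573955) had 5.06, 5.24 and 4.85 TPM in CBP300, 24.1, 27.8 and 25 TPM in PF9363, 40.4, 41.3 and 43.1 TPM in OSM and 3.41, 6.63 and 5.37 TPM in CT. CBP300 lay within the CT range and OSM above all other libraries. GIMAP4 rose in OSM against CT (log2 change 2.83, SE 0.17, limma adjusted p = 3.15e-06). Its CBP300 difference from CT was 0.02 (adjusted p = 0.936), -0.39 with median-of-ratios scaling and -0.53 in corrected values. GIMAP8, 87.9 kb away, had 5.21, 5.34 and 4.87 TPM in CBP300, 27.0, 25.3 and 17.3 TPM in PF9363, 43.2, 34.9 and 37.0 TPM in OSM and 6.49, 9.76 and 9.71 TPM in CT. The neighbours, looked at after their values were seen, were also lower in CBP300 than in OSM. The ratio of the means was 0.0540 for GIMAP1, 0.258 for GIMAP2, 0.261 for GIMAP5, 0.298 for GIMAP6 and 0.0771 for GIMAP7. Their ratios of PF9363 to OSM were 0.398 for GIMAP1, 0.592 for GIMAP2, 0.688 for GIMAP5, 1.46 for GIMAP6 and 0.371 for GIMAP7. GIMAP1 and GIMAP7 missed the PF9363 limit, GIMAP2 and GIMAP6 the CBP300 limit, and GIMAP5, at 1.26 TPM in OSM, the CBP300 limit and the level.

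**Figure D4:**
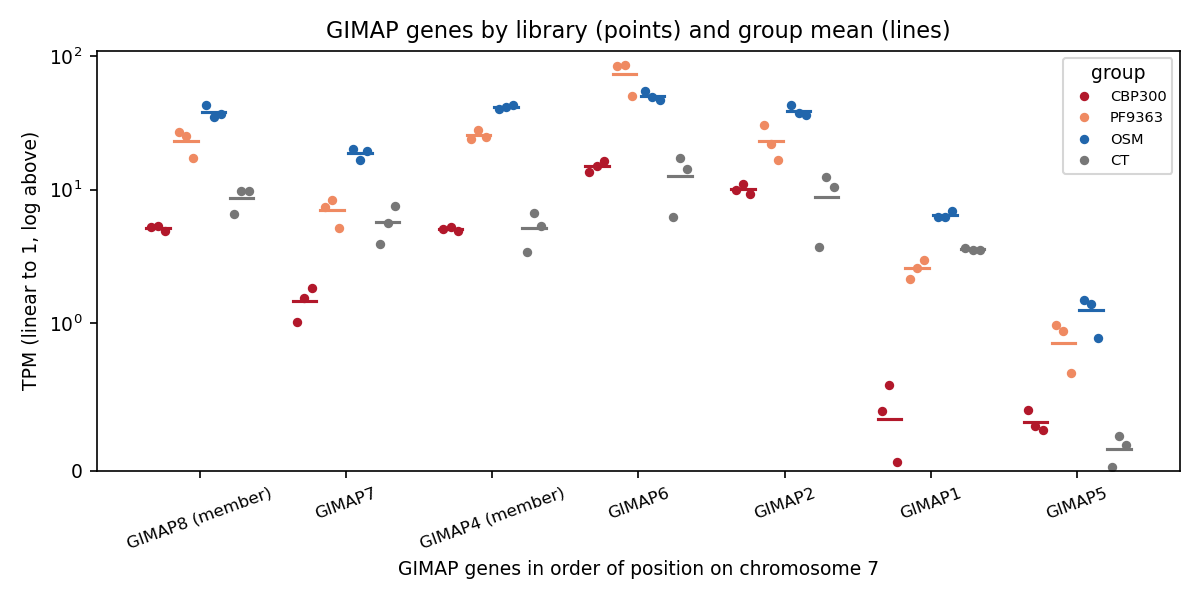
TPM of 7 GIMAP genes in each library (points) with group means (lines), genes in order of position and groups in the order CBP300, PF9363, OSM, CT; the axis is linear up to 1 TPM and logarithmic above. In each gene the CBP300 libraries lie below the OSM libraries, and the PF9363 libraries lie below the OSM libraries for GIMAP1, GIMAP2, GIMAP4, GIMAP7 and GIMAP8, overlap them for GIMAP5 and overlap or exceed them for GIMAP6.

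Enzymes formed another part of the members, with several of the lowest ratios of CBP300 to OSM. SULT1E1, which sulfates oestrogens, had 0.255, 0.173 and 0.264 TPM in CBP300, 19.9, 22.6 and 13.8 TPM in PF9363, 12.4, 11.1 and 11.1 TPM in OSM and 0.992, 2.23 and 1.39 TPM in CT. The groups were in the order PF9363, OSM, CT, CBP300 with no overlap, and SULT1E1 was lower in CBP300 than in CT (log2 change -1.01, SE 0.20, limma adjusted p = 0.00101). SULT1B1, a sulfotransferase of thyroid hormones and phenols located 53.3 kb away, averaged 0.333 ± 0.0756 TPM in CBP300, 9.13 ± 3.6 in PF9363, 8.98 ± 1.31 in OSM and 1.28 ± 0.595 in CT. GALNT15, which starts O-linked glycosylation, had 0.332, 0.403 and 0.559 TPM in CBP300, 12.1, 10.7 and 8.37 TPM in PF9363, 15.4, 12.7 and 13.1 TPM in OSM and 2.88, 3.99 and 3.61 TPM in CT. It rose in OSM against CT (1.72, SE 0.15, limma adjusted p = 4.47e-05). The log2 difference of CBP300 from CT was -1.65 for GALNT15, a direction set by the choice. CA2, a carbonic anhydrase, averaged 3.95 ± 0.881 TPM in CBP300, 10.7 ± 0.149 in PF9363, 20.1 ± 2.54 in OSM and 2.44 ± 1.34 in CT.

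The 9 members with a CT mean over 2 times the OSM mean were all lower in OSM than in CT by the limma test. This direction is set by how the class was defined, and the choice sets the CBP300 level of these members below OSM and CT. RNASE1, a secreted ribonuclease of endothelium (chromosome 14, 20801228 to 20803278), had 14.9, 16.9 and 20.3 TPM in CBP300, 197, 234 and 252 TPM in PF9363, 64.9, 74.3 and 76.4 TPM in OSM and 537, 418 and 453 TPM in CT. The groups followed each other without overlap, CT highest, then PF9363, OSM and CBP300. The log2 change against CT was -1.04 in PF9363 (SE 0.14, limma adjusted p = 0.000127) and -2.69 in OSM (adjusted p = 1.26e-06). CLEC3B, which encodes the plasminogen-binding lectin tetranectin, had 0.540, 0.577 and 0.559 TPM in CBP300, 8.33, 7.45 and 9.64 TPM in PF9363, 8.08, 11 and 8.56 TPM in OSM and 40.8, 38.8 and 41.4 TPM in CT. PF9363 and OSM overlapped, CT was above and CBP300 below both. HRCT1, DHRS3, PLAC9, RAMP2, ITGA10, HHIP and MSMP complete this class. DHRS3, a reductase of retinal, averaged 1.54 ± 0.464 TPM in CBP300, 8.16 ± 1.19 in PF9363, 11.9 ± 0.586 in OSM and 30.2 ± 7.26 in CT. ITGA10, an integrin subunit that binds collagen, averaged 2.57 ± 0.132 TPM in CBP300, 16.6 ± 3.73 in PF9363, 16.9 ± 0.756 in OSM and 34.1 ± 7.63 in CT. HHIP, a decoy receptor of hedgehog ligands, averaged 1.81 ± 0.236 TPM in CBP300, 5.97 ± 1.41 in PF9363, 9.38 ± 0.621 in OSM and 19 ± 3.12 in CT.

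Several members were higher in PF9363 than in OSM, although the limit asked only that they be kept. The PF9363 mean exceeded the OSM mean for 26 members and was at least 2 times it for 9. The limit on PF9363 favours such genes and no share over all tested genes is given, so these counts are descriptions. GGT5, a gamma-glutamyltransferase that acts on leukotrienes, had 3.48, 3.87 and 3.64 TPM in CBP300, 79.4, 89.0 and 98.5 TPM in PF9363, 26.9, 27.8 and 29.4 TPM in OSM and 63.7, 49.1 and 49.8 TPM in CT. PF9363 was the highest group and CBP300 the lowest, with no overlap. ASS1, the argininosuccinate synthase of arginine supply, averaged 1.68 ± 0.192 TPM in CBP300, 16.3 ± 2.58 in PF9363, 6.97 ± 0.974 in OSM and 13.9 ± 2.75 in CT. The PF9363 level of ASS1 differed from CT by 0.23 (log2, adjusted p = 0.27). IGFBP5, MSMP, RNASE1, LOC124901427, TMEM37, PLAC9 and HBA2 were the other members at 2 times or more.

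SPOCD1 had the ninth-lowest ratio of CBP300 to OSM of the members, 0.0525, while its PF9363 and OSM libraries overlapped. It had 2.58, 3.0 and 2.52 TPM in CBP300, 46.9, 49.6 and 49.4 TPM in PF9363, 48.8, 51.1 and 54.4 TPM in OSM and 9.83, 10.6 and 9.24 TPM in CT. CBP300 was below CT, and OSM and PF9363 above it. SPOCD1 is known in mice for directing DNA methylation in the male germ line. DYNLT5, a light chain of the dynein family, averaged 7.33 ± 0.491 TPM in CBP300, 23.9 ± 3.03 in PF9363, 33.9 ± 2.47 in OSM and 1.85 ± 0.437 in CT. It rose in OSM (log2 change 3.62) and in CBP300 (1.56), each against CT. PALMD, palmdelphin, averaged 1.08 ± 0.328 TPM in CBP300, 21.6 ± 1.97 in PF9363, 20.9 ± 1.75 in OSM and 11 ± 3.75 in CT. It rose in OSM against CT (0.92, limma adjusted p = 0.0059), where the corrected value was -0.15.

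The contractile genes include ACTA2, a smooth muscle actin, which averaged 1.09 ± 0.181 TPM in CBP300, 6.66 ± 0.747 in PF9363, 5.52 ± 0.491 in OSM and 7.49 ± 1.15 in CT. Its PF9363 difference from CT was -0.14 (log2, adjusted p = 0.38) and 0.32 in corrected values. Of 14 contractile and SRF or YAP target genes tested, 8 were lower in CBP300 than in OSM, and 3 were higher and 4 lower in PF9363 than in OSM. Of 25 matrix glycoprotein and proteoglycan genes, 1 was higher and 14 were lower in CBP300 than in OSM, with 2 and 17 in PF9363. Over all tested genes the shares were 13.8% and 13.3% in CBP300 and 11.3% and 35.6% in PF9363, and both lists hold members chosen on these contrasts. The 22 gp130 and STAT3 target genes held no member, and only 12 of the 74 members are in any of the 31 lists. Among these 22 genes OSM was above CT for 20 and below it for 1, beside 42.1% and 15.2% of all tested genes. Of the same genes, 4 were higher and 5 lower in CBP300 than in OSM, with 5 and 5 in PF9363.

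Some members need care because reads may be shared or rest on 1 library. SERPINB4 and SERPINB3, near-identical protease inhibitors 10.9 kb apart on chromosome 18, were at 0 in all CT libraries. SERPINB4 had 2.61, 1.83 and 0.977 TPM in CBP300, 17.0, 15.5 and 10.2 TPM in PF9363 and 8.42, 8.37 and 6.91 TPM in OSM. With a floor of 3 reads over the CT group, SERPINB4 was at least 95.9-fold and SERPINB3 at least 57.7-fold higher in OSM than in CT, and reads may be divided between the pair. HBA2, alpha globin, had 0, 0.0624 and 0 TPM in CBP300, 44.9, 37.0 and 50.3 TPM in PF9363, 1.43, 0 and 14.9 TPM in OSM and 0, 5.18 and 0 TPM in CT. Its place among the members rests on OSM replicate 3, and its OSM libraries range from 0 to above all CT libraries. HBB, beta globin and no member, had 0, 0.0396 and 0 TPM in CBP300, 0 TPM in all 3 PF9363 libraries, 48.8, 1.72 and 132 TPM in OSM and 0.244, 40.6 and 0.350 TPM in CT. HBA1 shares reads with HBA2 and averaged 0.0412 TPM in CBP300, 18.7 in PF9363, 2.80 in OSM and 0.895 in CT. The pseudogenes RPS28P4 and RPL31P4 may take reads of their parent genes, and the 6 antisense members, among them SEPTIN4-AS1 and CLDN14-AS1, those of the genes they overlap. Other members also overlap expressed genes. STAB1 overlaps NT5DC2 on the other strand (149 TPM in OSM), and CLEC3B overlaps EXOSC7 on the same strand (19.6 TPM). MSMP, SAMD11 and F12 overlap RGP1 (40.9 TPM), NOC2L (84.9 TPM) and GRK6 (56.9 TPM) on the other strand. The part of shared reads in these values was not tested.

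The members had fewer CpG dinucleotides at the transcript start than tested genes as a whole. In the first 200 bases of the longest transcript, the 72 members with a sequence had a median of 5 CpG dinucleotides, against 13 over 16054 tested genes. At most 5 were found in 37 members (51.4%), against 25.8% of tested genes. Among protein-coding genes these shares were 54.1% (33 members) and 17.9%. This is a description with no test, and the share of CpG was not set against level or length. Members of low content included SULT1E1 and PALMD, with 0, and ROBO4, GRAP and IL7R, with 1, while SOX18 and IGFBP3 had 31 each. The longest transcript need not be the one used in these cells.

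**Figure D5:**
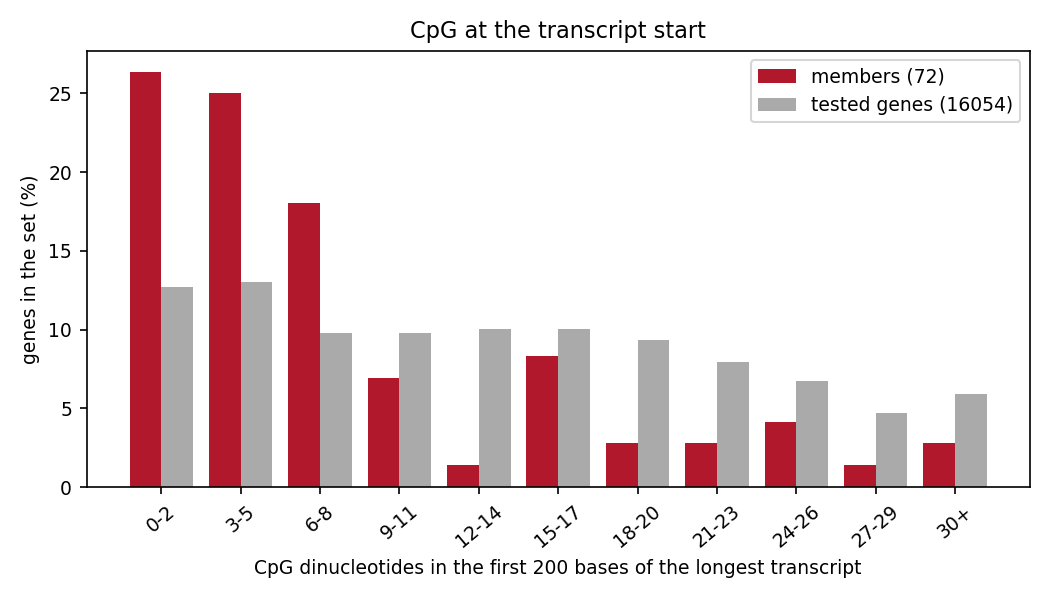
Share of genes (%) by the number of CpG dinucleotides in the first 200 bases of the longest transcript, for the 72 members with a sequence (red) and the 16054 tested genes (grey). The members are most frequent in the bins of 0 to 5, which hold 51.4% of them against 25.8% of tested genes.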

How the data were processed

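Messenger RNA of HMEC-1 cells was measured in 12 libraries, made with a stranded poly(A) kit and paired reads per the labels' protocols. The values are TPM as deposited by the authors. The tools were Trimmomatic 0.40 and Bowtie2 with RSEM 1.3.3 on GRCh38, per the submitters' processing notes, with the annotation, the strand setting and filters not given in the sources used here. Whole reads per gene were recovered from the TPM for 16843 of the 16848 tested genes (99.97%, tolerance 0.001) and give the depth. The PF9363 columns fall short of 1e6 by 397, 430 and 178, which was left as it is.

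A gene was tested if 3 libraries or more reached 1 TPM. limma 3.58.1 (R 4.3.3) was fitted to log2(TPM + 1) of all 12 libraries, with 1 mean per group and a variance trend, with Benjamini-Hochberg adjustment over all tested genes. On this scale the change of low genes is understated. The fit was also run on simulated counts with the same spread for all genes. These had no GC trend and no outlying library, so they cannot show the error rate in these data. GENCODE release 29 gave positions, types and transcript sequences, and 58516 of 60623 genes were found in it. Tables were made with pandas 2.3.3 and numpy 2.4.6 in Python 3.11.15, and plots with matplotlib 3.10.9.

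The members and the 31 gene lists were chosen with earlier results of these data known. Named members were the 12 of highest OSM level, the 10 of lowest CBP300 to OSM ratio, the 6 of highest and 4 of lowest PF9363 to OSM ratio, the 6 highest and 6 lowest in OSM against CT, those in a list and the 3 nearest each limit; those of unknown role could be passed over. 1 member is counted but not reported by name here. RGS4, ASS1, PAPPA, TRIM22, HHIP, GIMAP8 and the pseudogene and antisense members were added after their values were seen, as were the GIMAP, IGFBP and globin neighbours. Alternatives were other limits of the rule, pseudocounts, filters, scaling, correction for GC content and length, voom on recovered reads, a fit restricted to the groups compared, a replicate block and omission of each library.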

Additional observations from a re-analysis of the deposited data

How the results depend on the processing

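The number of members depended on the limits: 128 with a looser CBP300 limit (1/3 of OSM), 43 with a stricter PF9363 limit (0.75 of OSM) and 46 with an OSM mean of at least 10 TPM. Without each library that the rule uses it was 70 to 80, and after removal of the GC and length trend, an alternative chosen after seeing the data, it was 90, with 59 shared. With median-of-ratios scaling, OSM was below CT for 26 members, all 17 of the main count among them, and 15 had a CT mean over 2 times the OSM mean. The other counts of members stayed within 1.5 times their value in the alternatives run. Leaving out each library gave 34 to 38 members with OSM above CT and 14 to 18 with OSM below it.

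The check on log2 changes of single members covered only those named by level, ratio, change against CT or list. Among members outside it, GLIPR1 in OSM against CT went from 0.43 to -0.87 with the GC and length trend removed. Within the check, 28 of 2580 values turned sign, 18 of them without passing the test on either side. The other 10 had a pass on at least 1 side and follow. In OSM against CT, MMRN2 was -0.248 with the GC and length trend removed and -0.356 with median-of-ratios scaling. IL7R was -0.164 and PALMD -0.148 with that trend removed. In CBP300 against CT, MPZL2 was -1.087, GIMAP4 -0.526 and GBP2 -0.482 with the trend removed, and GIMAP4 was -0.389 with median-of-ratios scaling. In PF9363 against CT, IL7R was -0.3 and ACTA2 0.323 with the trend removed. The causes were not tested. Another 43 values lost and 32 gained a call.

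Whether samples of the same replicate number belong together was not settled. The correlations of their deviations ran from -0.48 to 0.23, and with 3 libraries per group they cannot exclude a shared run. With the replicate block, CBP300 was above CT for 6 members and below it for 55, PF9363 for 35 and 17, and OSM for 37 and 16. Depth limits the lowest members. Over the 3 CBP300 libraries, HBA2 rests on 1 recovered read, MSMP on 5, SULT1E1 on 12, CLEC3B on 16 and IL7R on 53. The pseudogene RPS28P4 rests on 8, and these are not all such members.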

Other observations

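Of the genes that met all 3 limits, 9 were left out by the start of their symbol and 3 for having none. Several are vascular or mesenchymal. VWF, the von Willebrand factor, averaged 0.826 TPM in CBP300, 13.99 in PF9363, 12.9 in OSM and 6.63 in CT. PLVAP, a protein of endothelial fenestrae, averaged 3.25 TPM in CBP300, 40.2 in PF9363, 28.2 in OSM and 92.2 in CT. TAGLN, an actin-binding protein of smooth muscle, averaged 4.22 TPM in CBP300, 86.1 in PF9363, 70.4 in OSM and 86.8 in CT. The others with a symbol were CXCL12, VEGFC, LIPG, COL1A1, MMRN1 and MMP1.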
